A study of Homo sapiens with 6 samples.

Results

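The outer 5 Mb of the human chromosome arms were examined for lactylation of lysine 5 on histone H4 (H4K5la) in PLC/PRF/5 cells, an established hepatocellular carcinoma line. The set holds every peak of the 4 deposited lists whose summit lay within 5 Mb of either end of an autosome in hg38, merged over the lists where peaks shared at least 1 bp. The short-arm ends of chromosomes 13, 14, 15, 21 and 22 were skipped, which left 39 ends. The rule gave 20541 regions made of 59290 peaks, out of 71122 regions and 181527 peaks in the series. They are 28.9% of the regions, on 6.78% of the autosomal length. The rest of the autosomes, which is set beside them, held 49901 regions.

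The study measured H4K5la by ChIP-seq, in which sheared chromatin bound by an antibody is sequenced and enriched stretches are called as peaks. The lactate group was cultured with 20 mM lactate (added as lactic acid) for 24 h, and the control group is labelled as such with no agent named. Each group has 2 libraries with a peak list, numbered replicates 2 and 3, and 1 input library of unprecipitated DNA without a peak list. Nothing in the labels says that the replicates came from separate cultures, so a p-value here reflects no more than library-to-library spread, possibly technical. The labels name 2 cell banks for the line and do not say which supplied these cells. The lists hold no expression values, so the cell line was not checked against marker genes.

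Lactylation is an acyl mark that cells derive from lactate, and on histones it has been described at genes that are transcribed. Human telomeres are made of TTAGGG repeats, followed inward by blocks of sequence that several chromosome ends share, where short reads are hard to place. Further in lies unique sequence that at many ends is rich in genes and in G and C, and that carries large families such as olfactory receptor and zinc finger genes. Peak lists show where signal passed a threshold, and signal under that threshold is not seen in them.

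The 7 promoters below are shown because peaks lay over all or part of them in a defined set of libraries. They give the letters that later counts of CpG rest on. Each runs from 250 bases before to 50 bases after a listed gene start, 5′ to 3′ on the strand of the gene, from RefSeq on GRCh38.p14, and capitals mark each CpG. In all 4 libraries peaks lay over the promoters of LOC124905027, an uncharacterised coding gene (chr21:43329816-43330115, minus strand), AGPAT3, an acyltransferase of phospholipid synthesis (chr21:43925148-43925447, plus strand), PRLH, the prolactin-releasing hormone (chr2:237566324-237566623, plus strand), and ZG16B, a secreted lectin-like protein (chr16:2830053-2830352, plus strand). Only the lactate libraries had one over ZNF419, a zinc finger gene (chr19:57487500-57487799, plus strand), and THOC1, a subunit of the THO complex of mRNA export (chr18:267998-268297, minus strand). Only the control libraries had one over KRTAP10-8, a keratin-associated protein of hair (chr21:44611829-44612128, plus strand). Peaks shared 125 and 147 of the 300 bases at ZNF419 and 100 and 138 at THOC1 with lactate, and 102 and 28 at KRTAP10-8 in control. At PRLH, ZG16B, ZNF419, THOC1 and KRTAP10-8 no summit lay inside the window, so the letters are not those under the summits.
LOC124905027: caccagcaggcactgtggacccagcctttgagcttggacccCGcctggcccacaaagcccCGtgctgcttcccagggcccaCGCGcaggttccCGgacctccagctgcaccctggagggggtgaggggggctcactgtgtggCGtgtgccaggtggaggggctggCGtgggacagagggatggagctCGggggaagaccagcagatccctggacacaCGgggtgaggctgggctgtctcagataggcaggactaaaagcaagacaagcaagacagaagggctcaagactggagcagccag
AGPAT3: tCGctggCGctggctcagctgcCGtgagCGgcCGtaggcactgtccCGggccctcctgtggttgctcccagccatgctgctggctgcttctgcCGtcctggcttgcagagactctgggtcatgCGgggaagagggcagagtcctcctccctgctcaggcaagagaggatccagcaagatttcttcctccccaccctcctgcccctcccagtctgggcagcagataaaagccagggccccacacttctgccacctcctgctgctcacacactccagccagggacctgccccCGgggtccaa
PRLH: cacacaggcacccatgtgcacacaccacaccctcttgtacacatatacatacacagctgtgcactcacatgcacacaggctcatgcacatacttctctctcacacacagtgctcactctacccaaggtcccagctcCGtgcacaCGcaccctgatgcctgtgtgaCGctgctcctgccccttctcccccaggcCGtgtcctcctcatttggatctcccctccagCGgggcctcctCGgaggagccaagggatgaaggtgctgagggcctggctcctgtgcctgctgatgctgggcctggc
ZG16B: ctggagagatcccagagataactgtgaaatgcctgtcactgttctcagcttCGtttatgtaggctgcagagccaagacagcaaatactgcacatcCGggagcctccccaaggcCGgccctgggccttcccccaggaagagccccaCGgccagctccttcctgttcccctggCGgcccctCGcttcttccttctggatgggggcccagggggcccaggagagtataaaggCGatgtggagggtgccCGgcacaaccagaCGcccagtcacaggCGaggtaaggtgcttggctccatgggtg
ZNF419: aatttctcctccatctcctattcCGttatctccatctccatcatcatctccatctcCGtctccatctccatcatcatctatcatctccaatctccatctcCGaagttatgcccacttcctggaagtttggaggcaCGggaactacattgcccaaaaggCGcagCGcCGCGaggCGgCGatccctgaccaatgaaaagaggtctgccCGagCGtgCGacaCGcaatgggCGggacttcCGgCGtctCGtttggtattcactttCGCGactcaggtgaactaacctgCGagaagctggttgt
THOC1: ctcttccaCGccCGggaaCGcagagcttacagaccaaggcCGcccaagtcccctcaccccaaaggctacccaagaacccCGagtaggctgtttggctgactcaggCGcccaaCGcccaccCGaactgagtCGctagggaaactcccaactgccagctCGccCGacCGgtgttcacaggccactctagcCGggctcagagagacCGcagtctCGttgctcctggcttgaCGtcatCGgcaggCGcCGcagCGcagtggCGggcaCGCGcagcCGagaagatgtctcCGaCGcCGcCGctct
KRTAP10-8: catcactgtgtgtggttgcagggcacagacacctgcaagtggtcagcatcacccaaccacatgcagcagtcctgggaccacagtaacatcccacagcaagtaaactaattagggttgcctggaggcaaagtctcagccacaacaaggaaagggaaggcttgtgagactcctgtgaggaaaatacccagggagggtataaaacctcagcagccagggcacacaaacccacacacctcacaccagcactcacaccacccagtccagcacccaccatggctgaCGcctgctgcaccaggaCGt
These windows hold 9 CpG at LOC124905027, 9 at AGPAT3, 6 at PRLH, 10 at ZG16B, 21 at ZNF419, 28 at THOC1 and 2 at KRTAP10-8. The TTAGGG hexamer was found on either strand at KRTAP10-8 and in none of the other windows shown.

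The first question was how dense the mark was near chromosome ends. The outer 5 Mb held 65.1 and 67.7 peaks per Mb in the lactate libraries and 84.5 and 86.8 in the control libraries. The rest of the autosomes held 9.41 and 9.38 peaks per Mb in the lactate libraries and 13.3 and 13.4 in the control libraries. The outer 5 Mb were thus denser in each of the 4 libraries, by 6.91- and 7.22-fold in the lactate and 6.34- and 6.46-fold in the control libraries. On the log2 scale the difference, outer minus rest, averaged 2.75 ± 0.0866 (SD, n = 4 libraries, exact two-sided sign-flip p = 0.125, the smallest that 4 libraries can give). Neighbouring peaks lay a median of 3426 and 3184.5 bp apart in the outer 5 Mb of the lactate libraries and 2175 and 2116.5 bp apart in those of the control libraries. In the rest they lay 11293 and 11086 bp apart with lactate and 6483.5 and 6544.5 bp apart in control.

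Outer sequence is rich in genes, so the density was also read in 1 Mb bins of like gene number. The 195 outer bins held a mean of 12.2 coding genes and the 2645 bins of the rest held 6.24. In bins with 1 to 4 coding genes the outer density averaged 39.99 peaks per Mb in lactate and 50.9 in control libraries, against 4.34 in lactate and 5.97 in control libraries in the rest. In bins with 10 to 19 genes the outer values were 106 in lactate and 129 in control libraries, against 20.4 in lactate and 29.1 in control in the rest. In bins with 30 or more genes they were 63.5 in lactate and 95.4 in control libraries, against 32.2 in lactate and 48.0 in control in the rest. The outer bins were therefore denser at every gene number, and the mean ratio over the 4 libraries was 8.88, 5.43, 4.81, 2.21 and 1.98 for 1 to 4, 5 to 9, 10 to 19, 20 to 29 and 30 or more genes. It was 10.98 in bins without a coding gene, which rests on 8 outer bins, and the value for 20 to 29 genes rests on 18. Bins without a peak, 5 outer and 270 of the rest, were kept in these ratios. Over all bins with a peak, of any gene number, the ratio was 6.43 and 6.72 in the lactate and 5.90 and 6.01 in the control libraries. The density of the rest rose with each step in gene number, while that of the outer bins was highest at 10 to 19 genes.

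**Figure D1:**
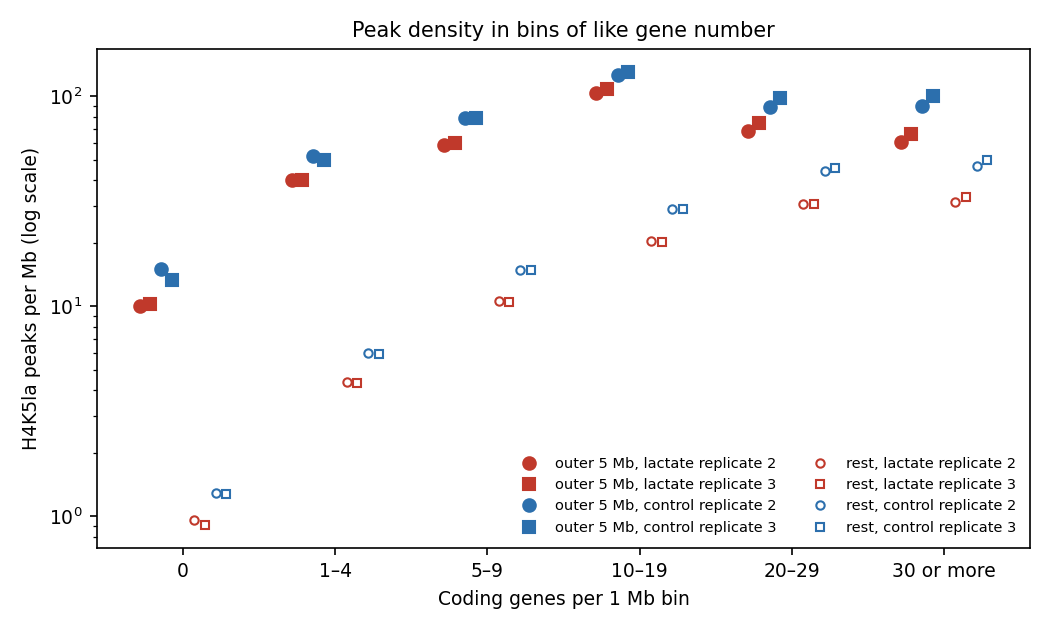
H4K5la peaks per Mb (log axis) in 1 Mb bins grouped by the number of coding genes; large filled points are outer bins, small open points the rest, circles replicate 2 and squares replicate 3. The outer points lie above the points of the rest in each gene class and library, down to 60.6 against 31.4 peaks per Mb with 30 or more coding genes in lactate replicate 2.

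The density was not highest at the very end of the chromosomes. In the outermost 0.1 Mb it was 9.36 peaks per Mb in lactate and 16.03 in control libraries, on average over the ends. It was highest 1 to 2 Mb from the end, at 86.6 in lactate and 109 in control libraries, and was 44.4 in lactate and 58.2 in control libraries at 4 to 5 Mb. Between 5 and 7.5 Mb it was 26.1 in lactate and 35.4 in control libraries, and beyond 30 Mb it was 6.78 in lactate and 9.79 in control. The lactate to control ratio was lowest in the outermost 0.1 Mb, at 0.584 on 37 and 36 lactate peaks and 64 and 61 control peaks, and highest at 1 to 2 Mb, at 0.798. Beyond 10 Mb it lay between 0.693 and 0.709. Densities were taken over whole window lengths, with no allowance for sequence where reads cannot be placed. The values nearest the end are therefore uncertain. The outermost summit lay from 17.4 kb from the end at 11q to 4575 kb at 4q.

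**Figure D2:**
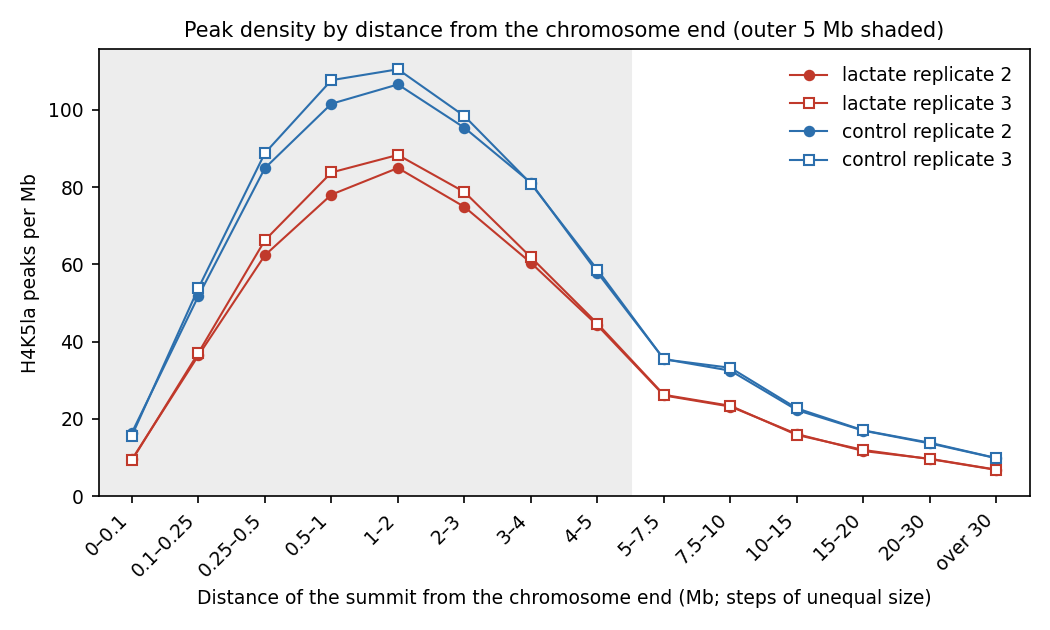
H4K5la peaks per Mb against the distance of the summit from the chromosome end, in steps of unequal size, for each of the 4 libraries; the outer 5 Mb are shaded. Density is highest 1 to 2 Mb from the end in all 4 libraries, and both lactate lines run below both control lines at every distance.

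The 39 ends differed from one another far more than the libraries did. Averaged over the libraries, the densest ends were those of 9q with 163.7 peaks per Mb, 17q with 161, 21q with 157 and 20q with 155. The median end had 76.6. At 9q the lactate libraries had 663 and 718 peaks and the control libraries 924 and 969. At 21q there were 733 and 738 in lactate and 830 and 842 in control libraries, so that control exceeded lactate at both ends without overlap.

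The emptiest ends were those of 4q, 9p, 3p and 18p. At 4q there were 0 and 1 peaks in the lactate libraries and 1 and 0 in the control libraries, on 5 Mb with 21 coding genes. At 9p there were 2 and 3 in lactate and 4 and 2 in control libraries, with 25 coding genes. At 3p there were 13 and 19 in lactate and 18 and 22 in control libraries, and at 18p 17 and 20 in lactate and 33 and 34 in control libraries. The other end of the same chromosome had 88.7 peaks per Mb at 4p, 163.7 at 9q, 29.4 at 3q and 56.6 at 18q, of which 4p and 9q lie above the median end. The lists hold no measure of DNA copy number, so fewer copies of an end and less mark per copy cannot be told apart.

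At 33 of the 39 ends the density exceeded that of the rest of the same chromosome in all 4 libraries. The exceptions were 3p, 4q, 9p, 18p, 19q and 20p. The median end was 5.89 times as dense as its own chromosome, and 13q stood highest at 38.9 times, with 106.6 peaks per Mb against 2.76 on the rest of chromosome 13. Across the 39 ends the number of coding genes and the peak density had a Pearson correlation of 0.309 and a Spearman correlation of 0.483, given as a description since ends share their libraries. Ends of long arms had a median of 80.3 peaks per Mb over 22 ends, and ends of short arms 54.9 over 17 ends.

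Both lactate libraries lay below both control libraries at 36 of the 39 ends and above them at none, and they overlapped at 3p, 4q and 9p. The lactate lists held fewer peaks in the rest of the autosomes too, at 0.702 of the control number. This tally was not repeated with lists of equal length, where the ratio over all outer peaks was 1.06. By end, the lactate to control ratio had a median of 0.768. Leaving aside 4q, where 1 peak stood against 1, it was highest at 21q with 0.880 and at 5p with 0.872. It was lowest at 18p with 0.552, at 19p with 0.626 and at 16p with 0.635. At 19p the counts were 285 and 318 in lactate and 440 and 523 in control libraries.

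**Figure D3:**
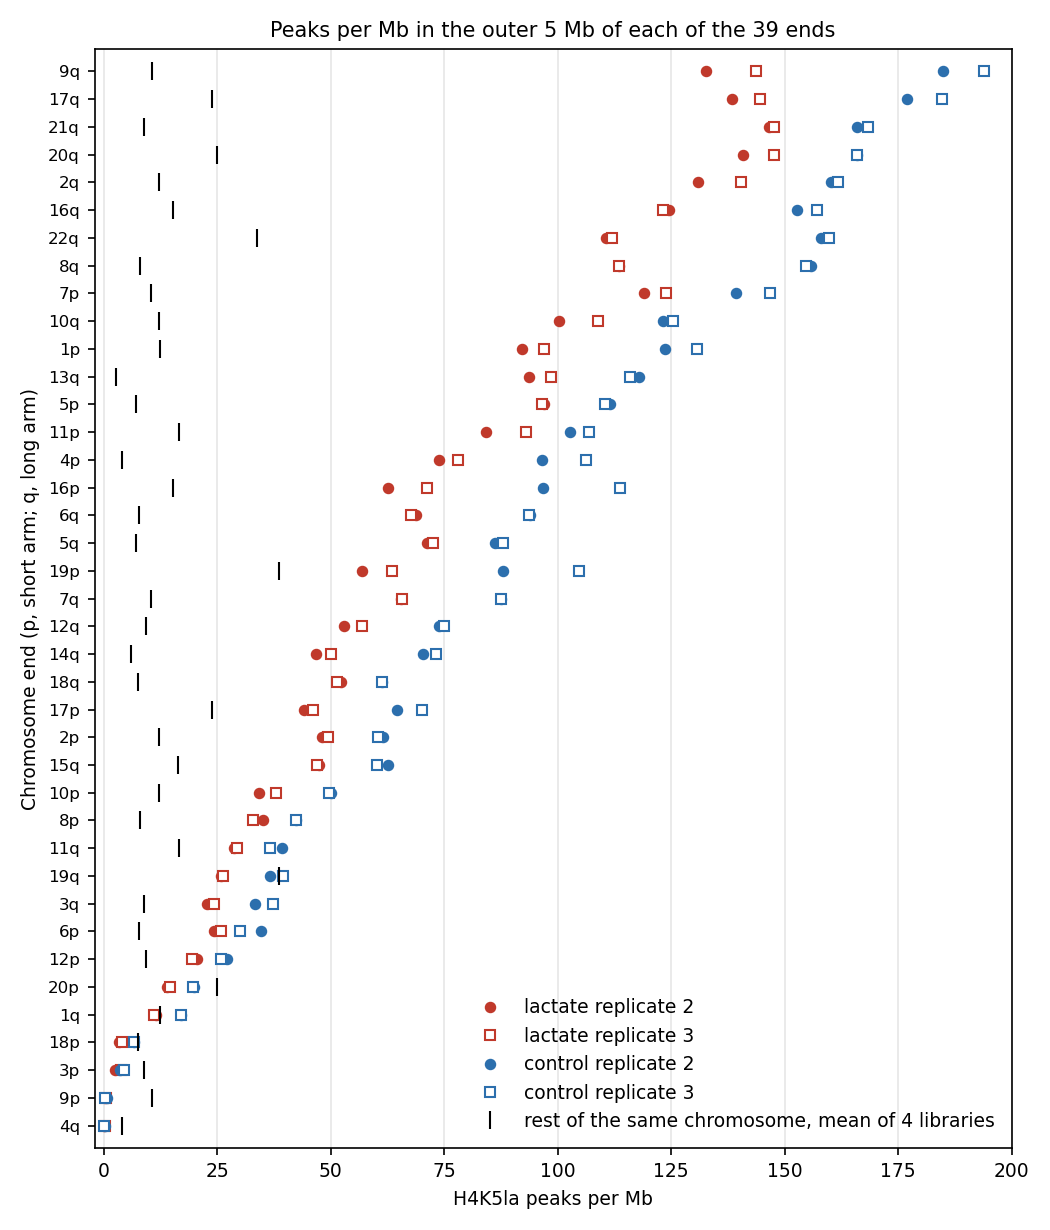
H4K5la peaks per Mb in the outer 5 Mb of the 39 chromosome ends, ordered by their mean, with 1 point per library; the black bar is the mean density on the rest of the same chromosome. The 9q end has the highest mean, 163.7 peaks per Mb, and 4q the lowest, 0.1, and at 36 ends both red lactate points lie left of both blue control points. The lists are shown at full length, and the lactate lists are the shorter ones.

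The second question was how the mark in these windows differed with added lactate. The outer 5 Mb held 12691 and 13200 peaks in the lactate libraries and 16471 and 16928 in the control libraries, which do not overlap. The ratio of the means was 0.775 (exact two-sided permutation p = 0.333, the smallest that 2 libraries against 2 can give). The length under peaks was 8.34 and 8.48 Mb in the lactate libraries and 16.6 and 16.8 Mb in the control libraries, a ratio of 0.503 (exact permutation p = 0.333). Both measures were lower with lactate, and the length differed more than the number. The differences were 10.4 and 56.6 times the larger SD of the groups. Each SD rests on 2 libraries that may be technical replicates, so these multiples do not measure spread between cultures. Each treatment is listed with 1 input library, so input and treatment cannot be told apart.

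The direction of the number depended on how many peaks each list holds, which was 37951 and 38402 for lactate and 52215 and 52959 for control. With each list held to its 37951 peaks of best p, the outer 5 Mb had 12691 and 13009 peaks in the lactate libraries and 12114 and 12186 in the control libraries, a ratio of 1.06. The outer peaks of at least 2 kb then numbered 204 and 202 with lactate and 1581 and 1639 in control. The lower number thus turned round, and the lower number of wide peaks did not.

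With lactate the number of peaks was lower by a smaller factor in the outer 5 Mb than in the rest, and their length by a larger one. For peaks of the rest the lactate to control ratio was 0.702 in number and 0.554 in length. The log2 ratio of outer to rest peaks was -0.978 and -0.916 in the lactate libraries and -1.10 and -1.08 in the control libraries, a difference of 0.14 (exact permutation p = 0.333). By the density ratio the sign of this difference turned in bins with no coding gene, where it was -0.245, and in bins with 30 or more, where it was -0.015 (exact permutation p = 0.667 in both). The outer share of autosomal peaks was higher with lactate, at 33.7 and 34.6% in the lactate libraries and 31.8 and 32.2% in the control libraries. The outer share of the length under peaks was lower with lactate, at 38.1 and 39.3% in the lactate libraries and 40.7 and 41.2% in the control libraries (exact permutation p = 0.333 for both shares). The values of the groups do not overlap in either share.

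Outer peaks were wider than those of the rest in every library, and narrower with lactate than without. The median outer width was 502 and 492 bp in the lactate libraries and 674 and 662 bp in the control libraries, and the ratio was 0.744 (exact permutation p = 0.333). In the rest it was 430 and 419 bp in the lactate libraries and 505 and 496 bp in the control libraries. The outer median exceeded that of the rest by 120 ± 54.9 bp (SD, n = 4 libraries, exact sign-flip p = 0.125). This mean and SD pool the treatments, which differed. The outer median was 1.17 and 1.17 times that of the rest with lactate and 1.33 and 1.33 times in control. Wide peaks differed most between the treatments.

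The lactate libraries held 204 and 203 outer peaks that spanned 2 kb or more, and the control libraries 1652 and 1733. The ratio was 0.120 (exact permutation p = 0.333). It depended on the width and on joining, at 0.365 for 1 kb or more, 0.035 for 3 kb or more and 0.421 for 2 kb or more once peaks within 1 kb of each other were joined. These peaks of at least 2 kb made up 1.61 and 1.54% of outer peaks in the lactate and 10.03 and 10.2% in the control libraries, against 0.452 and 0.357% of the peaks of the rest with lactate and 2.74 and 2.47% in control. Of all autosomal peaks of at least 2 kb, 64.4 and 69.5% were outer in the lactate libraries and 63.1 and 66.3% in the control libraries, which overlap (exact permutation p = 0.667). At 5 kb or more there were 0 and 1 outer peaks with lactate and 185 and 179 in control. In the rest there were 0 and 0 in the lactate and 40 and 36 in the control libraries.

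The narrowest class went the other way in the outer 5 Mb. Outer peaks under 500 bp numbered 6304 and 6736 in the lactate libraries and 5600 and 5958 in the control libraries, a ratio of 1.13 with no overlap. In the rest this class numbered 15877 and 16338 in the lactate and 17464 and 17976 in the control libraries, a ratio of 0.909. The ratio fell with width in both parts. It was 0.787 from 500 to 1000 bp, 0.485 from 1 to 2 kb and 0.134 from 2 to 5 kb in the outer 5 Mb, against 0.570, 0.369 and 0.114 in the rest for the same classes.

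**Figure D4:**
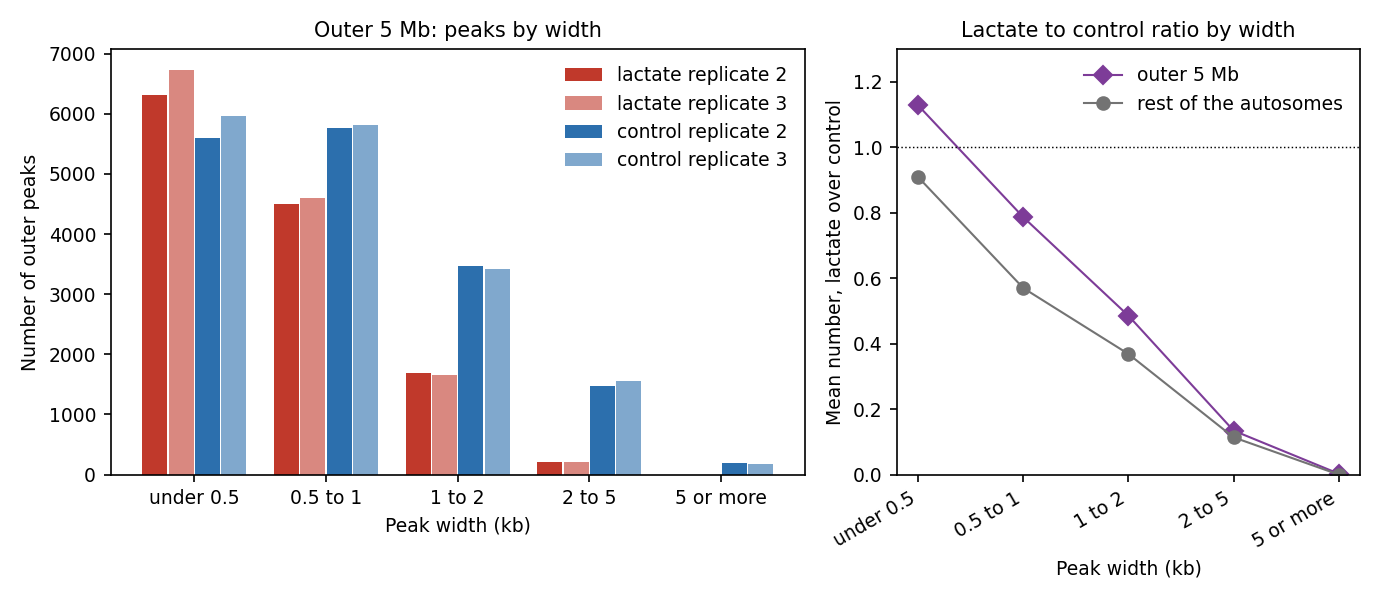
Left, number of outer peaks by width in the 4 libraries; right, ratio of the mean number of peaks with lactate to that in control, by width, for the outer 5 Mb (diamonds) and the rest of the autosomes (circles). The ratio for the outer 5 Mb starts at 1.13 for peaks under 0.5 kb, is 0.134 for those of 2 to 5 kb and ends at 0.00275 for those of 5 kb or more.

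The local background of the peak caller moved with these differences. The deposited fold and -log10 p of a peak give back the whole number of ChIP reads at its summit and the background expected there from the input. The background at outer summits averaged 3.55 and 3.69 times its genome-wide floor in the lactate lists and 2.26 and 2.47 times in the control lists. At summits of the rest it averaged 2.18 and 2.26 times in the lactate and 1.73 and 1.84 times in the control lists. It was higher with lactate at all 38 ends that had peaks in each library, by 1.09- to 1.88-fold. Each treatment is listed with 1 input library, so both lists of a group may share their input. The lists and the ends may then all repeat 1 contrast of inputs and are no independent replicates of it. At 9p the value rests on 2 to 4 peaks a library.

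The same held where the same regions were compared. Over the 7403 outer regions with a peak in all 4 libraries, the background was 3.33 and 3.31 times the floor in the lactate lists and 2.07 and 2.10 times in the control lists. The median number of ChIP reads at the summit was 26 and 29 in the lactate libraries and 28 and 28 in the control libraries, so these overlap. The median width there was 605 and 601 bp in the lactate and 1013 and 1006 bp in the control libraries. The median fold enrichment over all outer peaks, the authors' own value, was 6.68 and 6.74 in the lactate lists and 7.07 and 7.48 in the control lists. ChIP libraries held 1.17 and 1.32 reads per input read with lactate and 1.42 and 1.34 in control. The part of the background and of the depth in the narrower peaks was not tested.

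Wide control domains near chromosome ends were mostly still marked with lactate, in shorter pieces. Of 1280 outer regions with a peak of at least 2 kb in both control libraries, 92.7% had a peak in both lactate libraries and 24 had none in either, against 92.4% of 619 such regions in the rest. Regions marked in both lactate libraries held a mean of 2.02 lactate peaks per library, and all 1280 held 1.20 control peaks. The widest peak of a region, averaged over the libraries of a group, had a median of 1119.75 bp with lactate and 3088 bp in control. Lactate peaks covered 46.3% of the bases under control peaks. Since control width picked these regions, the widths are a description with no test.

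Among the widest control domains was one 3648 bp from PIM3, a serine/threonine kinase gene, on 22q (chr22:49946727-49957124). Within it lay 5 and 4 lactate peaks, up to 999 and 872 bp wide, and its control peaks were 10398 and 10190 bp wide. A domain in SLC17A9, the vesicular ATP transporter gene, on 20q (chr20:62958309-62968545) took in 7 and 7 lactate peaks no wider than 1969 and 1531 bp, and was 10182 and 10213 bp wide in control. Both were cut into several peaks with lactate.

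A domain in MICALL2, an actin-linked trafficking protein gene, on 7p (chr7:1446641-1456289) held 5 and 5 lactate peaks, the widest 2506 and 2623 bp, and its control peaks were 9614 and 9503 bp wide. A domain in TMEM105, which the table lists as noncoding, on 17q (chr17:81327261-81336225) had 5 and 5 lactate peaks, up to 2566 and 2589 bp, and its control peaks were 8965 and 8914 bp wide. By fold enrichment that domain ranked in the best 0.0230 and 0.0264% of the control lists. A last one on 20q, 53371 bp from GATA5, a cardiac and gut transcription factor gene, contained 4 and 6 lactate peaks, up to 2801 and 1739 bp, and its control peaks were 8841 and 9223 bp wide.

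The third question was which outer regions the treatments shared. A peak in all 4 libraries was found at 7403 of the 20541 outer regions (36.04%), against 28.8% of all regions of the series and 26.1% of the rest. Lactate-only regions, with a peak in each lactate library and no control peak, numbered 437 (2.13%), against 2.75% over the series. Control-only regions, defined the same way, numbered 3033 (14.8%), against 14.6% over the series. Pairs of 1 lactate and 1 control library shared 242 to 324 outer regions of their own, which is below both counts. The size of these classes depended on the processing, with 1016 lactate-only and 1321 control-only regions when each list was held to the same number of peaks. A reciprocal overlap of 50% in place of 1 bp gave 2430 lactate-only regions.

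Outer regions were more often shared than those of the rest, at an overlap of 1 bp. Peaks covered 4.28 and 4.35% of the outer length with lactate and 8.52 and 8.62% in control. In the rest they covered 0.511 and 0.494% with lactate and 0.910 and 0.902% in control. The part of this denser cover in the sharing was not tested. Of 8649 outer regions in both lactate libraries, 94.9% had a control peak, against 91.3% in the rest. Of 12885 outer regions in both control libraries, 23.5% had no lactate peak, against 28.1% in the rest. Where 1 library stands for its group the counts rise by construction. Without lactate replicate 2 or 3 there were 1111 and 1057 lactate-only regions, and without control replicate 2 or 3 there were 809 and 932. Without control replicate 2 or 3 there were 5501 and 5324 control-only regions.

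The best-ranked outer regions in all 4 libraries clustered on 15q, where 5 of the 10 lay. That end had 54.3 peaks per Mb, below the median end of 76.6. The lists hold no measure of DNA copy number, so more copies of 15q and more mark per copy cannot be told apart. IGF1R, the receptor of insulin-like growth factor 1, held a region at chr15:98953777-98954782 whose fold enrichment was 20.7 and 19.1 in the lactate lists and 14.3 and 19.3 in the control lists. LRRK1, a leucine-rich repeat kinase gene, held one at chr15:101047232-101048901 with 27.3 and 24.2 in the lactate lists and 14.1 and 15.5 in the control lists. MEF2A, a transcription factor of muscle and neurons, held one at chr15:99712271-99712803 with 25.9 and 19.9 in the lactate and 12.9 and 19.002 in the control lists. Fold enrichment ranks peaks within a list, and the values stand side by side as a description.

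The other 2 on 15q lay between genes, 82572 and 34081 bp from LRRC28, a leucine-rich repeat gene. The more distant of them ranked first of all, at chr15:99473301-99477346, and reached 19.2 and 21.2 in the lactate and 16.2 and 19.3 in the control lists.

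Outside 15q, DIDO1 on 20q, which encodes a reader of histone H3 methylation, had 18.2 and 28.1 in the lactate and 15.1 and 17.7 in the control lists. DUSP22 on 6p, a dual-specificity phosphatase gene, had 16.3 and 19.5 in the lactate and 19.5 and 18.8 in the control lists at 304 kb from the end of the chromosome. The region near LOC124905027 on 21q had 19.2 and 17.3 in the lactate and 25.5 and 36.8 in the control lists, the highest fold of the 10 regions.

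The best lactate-only regions lay inside genes. PASK, the gene of a nutrient-sensing kinase, held one at chr2:241118479-241119002 with a fold enrichment of 16.6 and 14.2. HDAC4, a class II histone deacetylase gene, held 2 of the 5, at chr2:239159606-239160102 with 13.8 and 17.1 and at chr2:239252727-239253211 with 12.5 and 16.9. SMOC2, a secreted calcium-binding protein gene, and RPTOR, the subunit that defines mTORC1, held the others. The RPTOR region at chr17:80786843-80787313 had 15.4 and 13.02. The widest peak among these 5 regions was 1086 bp, in SMOC2, and the rest were at most 508 bp.

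These genes were not marked with lactate alone. HDAC4 held 86 and 97 peaks in the lactate libraries and 111 and 104 in the control libraries, and RPTOR 65 and 64 in the lactate and 79 and 86 in the control libraries. The best control-only regions included one in MYT1, a neural zinc finger gene on 20q (chr20:64176516-64177027), with a fold enrichment of 12.8 and 16.9, and one in MOV10L1, a germline RNA helicase gene on 22q (chr22:50152362-50154118), with 12.8 and 14.8. MYT1 held 19 and 19 peaks in the lactate and 29 and 30 in the control libraries, so the gene as a whole was marked in all 4.

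The fourth question was where the mark lay relative to genes. Outer summits lay inside a coding gene in 62.0 and 62.5% of peaks in the lactate and 61.8 and 62.5% in the control libraries, where such genes take up 51.0% of the outer length. In the rest the values were 67.0 and 67.1% in the lactate and 66.6 and 67.0% in the control libraries, on 41.8% of the length. As a share of peaks, fewer overlapped the 1 kb on either side of a coding gene's start or end near chromosome ends than elsewhere. The share of outer peaks was 5.63 and 5.71% in the lactate libraries and 6.62 and 7.19% in the control libraries, against 10.2 and 10.5% with lactate and 11.3 and 12.1% in control in the rest. The difference, outer minus rest, averaged -4.73 ± 0.146 percentage points (SD, n = 4 libraries, lower in 4 of 4, exact sign-flip p = 0.125). The lactate share was lower than the control share by 1.23 points without overlap (exact permutation p = 0.333). Counted by gene the order was the other way, since outer peaks are denser. A peak at the start or end was found in all 4 libraries at 448 of 2394 outer genes. That is 18.7%, against 10.8% of autosomal coding genes and 9.66% of those elsewhere.

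At listed gene starts alone the outer share was 2.37 and 2.30% in the lactate and 2.78 and 3.07% in the control libraries, against 5.66 and 5.84% with lactate and 6.31 and 6.94% in control in the rest. Counted by gene, 163 of 1854 outer genes with a listed start had a peak within 1 kb of it in all 4 libraries (8.79%), against 6.24% of autosomal genes. Such a peak was lactate-only at 5 of them (0.270%, against 0.709%) and control-only at 97 (5.23%, against 4.81%). A promoter entry was at hand for 77.4% of the outer genes, which is under the 80% needed to describe the letters of the genes as a set, so only the entries themselves are described.

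Promoter entries under peaks held few CpG. Of 2532 outer entries, 102 (4.03%, against 2.84% of all entries) lay at least partly under a peak in all 4 libraries. Their median was 11 CpG in 300 bases, against 31 in the 2160 outer entries without a peak and 21 in all entries. Their median G and C content was 62.7%, against 69.7% without a peak. The hexamer GGGCGG, searched on both strands, was in 38.2% of the entries under peaks, 68.6% of outer entries without one and 56.6% of all. TTAGGG was in 8.82% of the entries under peaks, 7.45% of outer entries without one and 8.92% of all. The 499 entries of the rest with a peak in all 4 libraries had medians of 15 CpG and 62.3% G and C. Of these, 50.5% held GGGCGG and 10.02% TTAGGG. Few CpG under peaks were thus not particular to chromosome ends. The lactate-only entries numbered 5 (0.43% of all entries were lactate-only), with a median of 21 CpG, and ZNF419 and THOC1 are the pair with the best rank. The 101 control-only entries (2.82% of all entries were control-only) also had a median of 11 CpG.

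Outer genes were marked along their bodies more often than other genes. A peak inside the gene was found in all 4 libraries at 1096 of 2394 outer coding genes (45.8%), against 28.5% of all autosomal coding genes and 26.1% of those elsewhere. Outer genes are shorter, with a median of 16059.5 bp against 26537 bp, and the difference held at each length. Under 10 kb the share was 19.2% of 851 outer genes against 12.5% in the rest, from 10 to 30 kb 46.7% of 760 against 26.7%, from 30 to 100 kb 71.2% of 556 against 29.5%, and from 100 kb 80.2% of 227 against 39.4%.

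A peak in the lactate libraries alone was found at 17 outer genes (0.710%, against 0.996% of all) and in the control libraries alone at 140 (5.85%, against 5.46%). No peak was found in any library at 773. Summed over all outer genes, peaks covered 5.20 and 5.34% of the gene length in the lactate libraries and 10.7 and 10.99% in the control libraries, and the ratio was 0.486. Over all other coding genes they covered 0.844 and 0.822% in the lactate and 1.52 and 1.51% in the control libraries, a ratio of 0.550.

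Gene lists drawn up for this tissue and for chromosome ends are described by counts, with no test of a list. Of the telomere maintenance list 4 genes are outer, and 3 had a peak in all 4 libraries. TERT, the reverse transcriptase of telomerase, lies on 5p and held 10 and 9 peaks in the lactate and 14 and 11 in the control libraries, covering 8.90 and 8.59 kb of its 41.9 kb with lactate and 18.02 and 17.4 kb in control. RTEL1, a helicase that unwinds telomere loops, lies on 20q and had 9.78 and 12.4 kb covered with lactate and 17.6 and 22.9 kb in control. SMG6, which acts in RNA decay and at telomeres, had 1.36 and 1.21 kb with lactate and 3.48 and 3.65 kb in control of its 243.9 kb. In these 3 genes both lactate values lay below both control values.

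The list of subtelomeric genes holds families with copies at several chromosome ends and single genes further in, such as ADAP1, and had few peaks. Of 29 genes, 2 had a peak in all 4 libraries (6.90%, against 45.8% of outer genes), 1 in the control libraries alone, 4 in a mix of libraries and 22 in none, against 32.3% of outer genes with none. The 2 were IQSEC3, a synaptic exchange factor gene on 12p, and ADAP1, an ArfGAP gene on 7p. ZNF595 on 4p was the control-only gene. Several of these families have near-identical copies on other chromosomes, so reads may have been lost or split between copies, and a count of none is uncertain for them.

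Olfactory receptors, which nasal neurons use to sense odours, had a peak in all 4 libraries at 0 of 87, and 83 had none in any library. Their median length was 5.69 kb, and of all outer genes under 10 kb 19.2% had a peak in all 4 libraries and 55.1% had none. OR2B11 was control-only, and OR1F1, OR2L13 and OR6B3 were mixed. Many of these genes lie on 1q, with 14.15 peaks per Mb against 76.6 at the median end, and others on 11p, with 96.7. The list of the leukocyte receptor cluster on 19q holds receptors of blood cells and, beside them, genes of the NLRP family. Of its 31 members, 1 gene had a peak in all 4 libraries and 22 had none, against 45.8% and 32.3% of all outer genes. That gene was GP6, the collagen receptor of platelets, LILRA4 was lactate-only and NLRP5 control-only. The 19q end as a whole had 32.05 peaks per Mb, below the median end. Of the summed length of the olfactory receptor genes 0 and 0.0912% lay under peaks with lactate and 0.303 and 0.211% in control, and of the leukocyte cluster 0.486 and 0.160% with lactate and 0.654 and 0.710% in control.

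Zinc finger genes had a peak in all 4 libraries at 32 of 134 (23.9%, against 45.8% of all outer genes), in the lactate libraries alone at 1, in the control libraries alone at 16 (11.9%, against 5.85%) and in none at 58. Peaks covered 2.18 and 2.11% of their length in the lactate and 4.05 and 4.16% in the control libraries. ZNF469, a gene tied to corneal collagen, led the list on 16q with 44 and 42 peaks in the lactate and 50 and 51 in the control libraries. Of the 16 control-only genes 8 lie on chromosome 19, among them ZNF71, ZNF530 and ZNF418, as do 76 of the 134 listed. ZNF419, whose promoter is shown above, was the lactate-only gene, with 1 peak of 322 and 348 bp in the lactate libraries.

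Collagens and basement membrane genes were the list with a peak in all 4 libraries at every outer member, 14 of 14, against 45.8% of all outer genes and 71.2% of outer genes of 30 to 100 kb. The median length of the list was 74.2 kb. COL23A1, a membrane collagen, had 35.5 and 30.8 kb covered with lactate and 60.6 and 56.8 kb in control. COL5A1, a fibrillar collagen, had 35.6 and 33.1 kb with lactate and 62.5 and 59.4 kb in control. COL4A2, a chain of the basement membrane network, had 11.5 and 13.8 kb with lactate and 16.8 and 14.97 kb in control. COL6A3, a chain of the beaded-filament collagen, had 3.78 and 3.38 kb with lactate and 3.69 and 3.96 kb in control, which overlap. COLEC11, a collectin with a collagen-like region, had 3.71 and 2.37 kb with lactate and 12.2 and 10.9 kb in control. The lactate to control ratio of covered length thus ran from 0.263 at COLEC11 to 0.936 at COL6A3 among these 5, and was 0.498 over the list.

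Liver proteins and metabolic genes had a peak in all 4 libraries at 22 of 35 (62.9%), against 45.8% of all outer genes. PROZ and F10, coagulation proteins made by hepatocytes, neighbour each other on 13q. F10 had 3.35 and 3.20 kb covered with lactate and 6.39 and 5.27 kb in control. AGXT, the peroxisomal enzyme that detoxifies glyoxylate, had 6.26 and 6.24 kb with lactate and 9.29 and 9.40 kb in control, out of 11.7 kb. PTGDS, a prostaglandin synthase gene, was lactate-only and C8G, a complement subunit gene, control-only, each with 1 peak per library. F11, F12 and KLKB1, also of the coagulation contact system, and A1BG had no peak, and F11 and KLKB1 lie on 4q, one of the emptiest ends.

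In the glycolysis and transport list 5 of 9 genes (55.6%, against 45.8% of all outer genes) had a peak in all 4 libraries. HK3, a hexokinase, had 3.02 and 3.26 kb covered with lactate and 5.51 and 4.76 kb in control. PFKP, the platelet form of phosphofructokinase, had 4.65 and 6.65 kb with lactate and 16.1 and 12.4 kb in control. SLC2A6, a glucose transporter, had 1.18 and 0.323 kb with lactate and 2.64 and 2.46 kb in control. SLC16A3, the lactate exporter, had 0.839 and 1.76 kb with lactate and 1.42 and 1.45 kb in control, which overlap. ENO3, SLC2A4RG and TIGAR had no peak.

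Of the mTORC1, insulin and AKT list, 10 of 14 (71.4%, against 45.8% of all outer genes) had a peak in all 4 libraries, and MLST8, an mTOR subunit gene, was control-only. The median length of the list was 30.1 kb, and the share was close to the 71.2% of outer genes of 30 to 100 kb. RPTOR had 38.9 and 38.8 kb covered with lactate and 82.3 and 84.1 kb in control. INPP5A, an inositol phosphatase, had 37.6 and 40.5 kb with lactate and 86.6 and 85.8 kb in control. IGF1R had 12.9 and 10.8 kb with lactate and 16.6 and 14.7 kb in control. NPRL3, a subunit of the complex that restrains mTORC1, had 0.406 and 1.02 kb with lactate and 3.59 and 5.18 kb in control, the lowest ratio of these 4 at 0.162.

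Chromatin regulators had a peak in all 4 libraries at 18 of 30 (60%, against 45.8% of all outer genes), with CBX2, SIRT3 and MBD3 control-only. The median length of the list was 56.8 kb, and of outer genes of 30 to 100 kb 71.2% had a peak in all 4 libraries, a higher share. PRDM16, a regulator of brown fat formation, had 66.6 and 71.3 kb covered with lactate and 160.03 and 160.6 kb in control, out of 369.4 kb. KDM4B, a histone demethylase, had 28.1 and 32.5 kb with lactate and 76.2 and 82.6 kb in control. BRD9, a bromodomain subunit of a remodelling complex, had 6.32 and 7.25 kb with lactate and 9.995 and 10.2 kb in control. SIRT3, a mitochondrial deacylase, had 1 peak in each control library, of 374 and 815 bp.

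Developmental signalling genes had a peak in all 4 libraries at 16 of 36 (44.4%), close to the 45.8% of all outer genes, and in none at 14. RXRA, the partner of many nuclear receptors, had 30.3 and 28.4 kb of its 114.1 kb covered with lactate and 76.1 and 79.2 kb in control. TP73, a p53 relative, had 11.97 and 13.6 kb with lactate and 35.0 and 39.4 kb in control. The genes without a peak include the forkhead genes FOXC1, FOXC2, FOXF1 and FOXL1 and the SOX genes SOX8 and SOX18, all shorter than 10 kb, a length at which 55.1% of outer genes had no peak. TLE5, GLI4 and DVL1 were control-only.

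Neuronal genes and channels had a peak in all 4 libraries at 27 of 32 (84.4%), against 45.8% of all outer genes and 71.2% of those of 30 to 100 kb. The median length of the list was 64.5 kb, and HCN2, a pacemaker channel gene, was control-only. RBFOX3, a neuronal splicing factor of 576.2 kb on 17q, held 138 and 136 peaks in the lactate and 141 and 141 in the control libraries. These covered 93.1 and 93.2 kb with lactate and 161 and 149.7 kb in control, so the number was nearly the same and the length was not. PTPRN2, a protein of secretory granules on 7q, had 75.5 and 75.2 kb with lactate and 132 and 123 kb in control. Over the list peaks covered 4.95 and 5.00% of the gene length with lactate and 9.35 and 9.08% in control, close to the values of all outer genes.

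Imprinted genes had a peak in all 4 libraries at 11 of 16 (68.8%, against 45.8% of all outer genes). KCNQ1, a potassium channel whose locus on 11p is imprinted, had 56.5 and 54.4 kb covered with lactate and 108 and 110.1 kb in control. IGF2 had 2.15 and 2.12 kb with lactate and 3.50 and 3.69 kb in control. CDKN1C, PHLDA2 and ASCL2 in the same stretch of 11p had none. Keratin-associated protein genes on 21q and 11p are short, and 6 of 22 had a peak in all 4 libraries (27.3%, against 19.2% of outer genes under 10 kb), 4 in the control libraries alone and 4 in none. KRTAP12-4 lay wholly under a peak in each library, and KRTAP10-8, KRTAP10-6, KRTAP10-4 and KRTAP10-3 were control-only. These genes are close copies of each other, so their counts are uncertain.

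**Figure D5:**
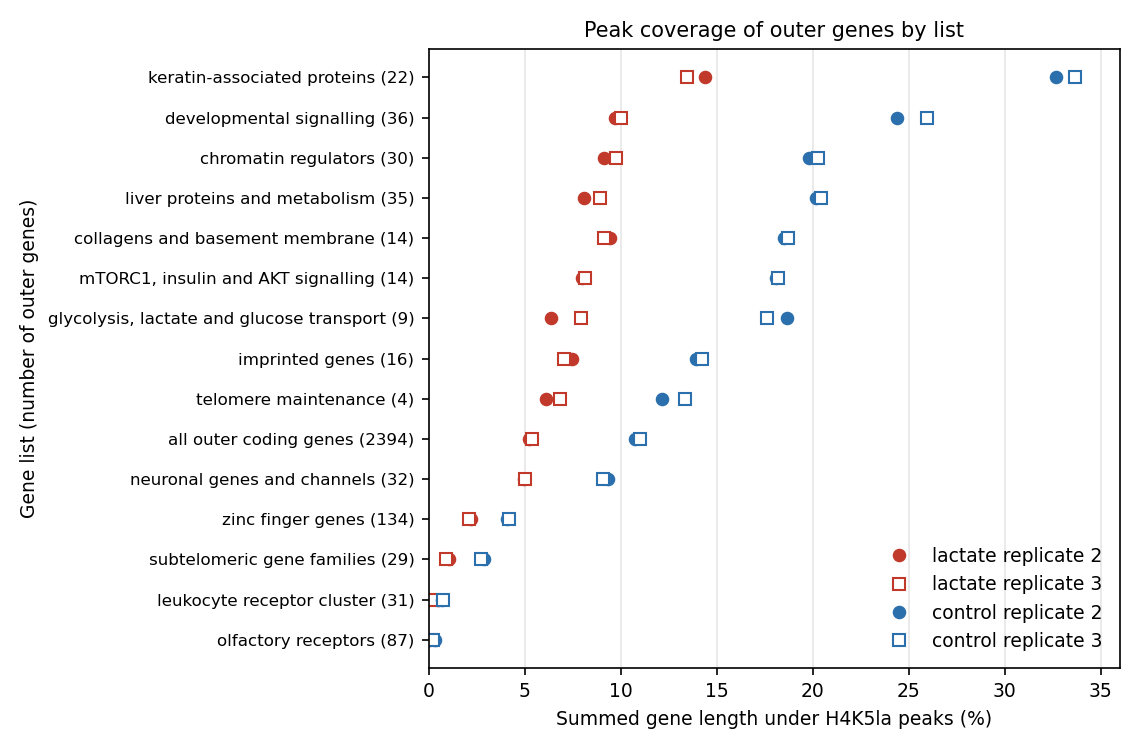
Percent of the summed length of outer genes that lay under H4K5la peaks, by gene list and for all 2394 outer coding genes, with 1 point per library and the number of genes in brackets. Both lactate points lie left of both control points in each of the 14 lists, and all outer genes stand at 5.20 and 5.34% with lactate and 10.7 and 10.99% in control.

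MicroRNA hairpins near chromosome ends were under a control peak in a larger share than elsewhere, while the share marked in all 4 libraries was near that of the whole. A peak in all 4 libraries lay over 7 of 237 outer hairpins (2.95%), against 3.01% of all autosomal ones, 0 were lactate-only (0.205% over all) and 13 control-only (5.49%, against 3.35% over all). By library 14 and 18 outer hairpins (5.91 and 7.59%) were under a peak with lactate and 40 and 37 (16.9 and 15.6%) in control. In the rest the shares were 5.88 and 5.72% with lactate and 9.40 and 10.7% in control. A peak in any library lay over 21.5% of the outer hairpins and 13.3% of those in the rest. The mature forms below are shown for 3 of the 7, with the seed (bases 2 to 8) in capitals, from RefSeq on GRCh38.p14. They are MIR551A inside MEGF6 (chr1:3560695-3560790, minus strand), MIR133A2 (chr20:62564912-62565013, plus strand), whose product acts in muscle, and MIR6804 inside PPP6R1 (chr19:55230885-55230952, minus strand).
hsa-miR-551a: gCGACCCAcucuugguuucca
hsa-miR-133a-3p: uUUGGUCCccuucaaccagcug
hsa-miR-6804-3p: cGCACCUGccucucacccacag
The seeds differ between the 3. At MIR133A2 the peak was 4036 and 4176 bp wide in the lactate libraries and 7512 and 7400 bp in the control libraries. At MIR551A it was 671 and 681 bp with lactate and 1039 and 1017 bp in control. At MIR6804 it was 2933 and 442 bp with lactate and 5877 and 5923 bp in control, so at each of the 3 both lactate peaks were the narrower ones.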

How the data were processed

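H4K5la ChIP-seq peaks of PLC/PRF/5 cells were analysed in 2 lactate and 2 control libraries. Per the submitters' processing notes, the build was hg38, the tools named include MACS2 2.2.6 and Bowtie2 2.3.4.2, and reads passed FastQC 0.11.7 and Trimmomatic 0.38. SAMtools 1.9 and Picard 2.18.11 are also named, and per the labels' protocols duplicates were removed. The deposited lists give for each peak the fold enrichment, the -log10 p and -log10 q and a score, as written by the authors' peak caller for each library. Every listed peak had a q under 0.01.

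From these files, peaks were assigned to the outer 5 Mb by summit and merged over libraries at an overlap of 1 bp. The fold enrichment and -log10 p of each deposited peak were solved for the ChIP reads at the summit and the local background. This gave whole reads for 100% of peaks, at a tolerance of 0.001 in -log10 p, and the step was tested on simulated data. The lists give no depth per library, so no interval on counts of reads is given. Fold enrichment was used only to describe and rank peaks within a list.

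Genes, promoters and miRNAs came from RefSeq tables of GRCh38.p14, the same assembly as hg38. Of 19126 autosomal coding rows, 153 on other scaffolds were left out. Groups were compared with exact permutation tests over the 6 assignments of 4 libraries, and outer with rest by sign flips, in Python 3.11.15 with pandas 2.3.3, numpy 2.4.6, scipy 1.17.1 and matplotlib 3.10.9.

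The windows and gene lists were chosen with earlier results of these data known. Named regions are the 10 best in all 4 libraries, the 5 best of each treatment alone and the 8 widest in control, not all of which are described. The promoters shown are the best ranked by fold of each class. Named genes are up to 5 per list by number of libraries and then rank, with up to 4 of each treatment alone. Genes named for having no peak, and peak counts within MYT1, HDAC4 and RPTOR, were picked after their values were seen. Alternatives were other distances, thresholds, overlaps, windows, widths, equal numbers of peaks, gene classes and each replicate left out. The listed gene starts and the ends with fewest or most peaks were added after seeing the data.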

Additional observations from a re-analysis of the deposited data

How the results depend on the processing

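Of the values recomputed under other settings, 173 were counted as unchanged, 14 moved and 3 reversed. Only counts of region classes could be counted as moved. Any other value was unchanged if its direction held, since no p here could fall under 0.05. The 173 thus say little about size, and they include the replicate block, which repeats the main values. The ratio of outer peaks of at least 2 kb counted as unchanged while going from 0.120 to 0.421 with peaks within 1 kb joined. With lists of equal length the lactate to control ratio of outer peaks was 1.06, with 1016 lactate-only and 1321 control-only regions. The lactate minus control difference in the outer to rest density ratio was -0.245 in bins with no coding gene and -0.015 in bins with 30 or more, against 0.66 over the whole length, and the cause was not tested. With the outer 2 Mb there were 3355 regions in all 4 libraries, 166 lactate-only and 1443 control-only, since the window is smaller, and with 10 Mb there were 706 lactate-only. A reciprocal overlap of 50% gave 4705 in all 4 and 2430 lactate-only regions. Leaving out each replicate gave 809 to 1111 lactate-only and 4167 to 5501 control-only regions. The ratio of outer peaks then ran from 0.760 to 0.790 and that of covered length from 0.499 to 0.508. Nothing in the labels pairs replicates 2 and 3 across treatments. With the replicate block, the ratio of outer peaks stayed at 0.775 (exact sign-flip p = 0.5, the smallest that 2 pairs can give), and no other call changed. With 2 libraries a group no comparison of treatments can reach a p of 0.05.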
